A study of Homo sapiens with 8 samples.

Results

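The replication-dependent histone genes of the HIST1 cluster on chromosome 6 were examined as the set of H3K4me3 regions called there. The cluster was taken as 2 windows of GRCh37, a larger one at chr6:26017000-26286000 and a smaller one at chr6:27775000-27870000. Every called region that overlapped a window by at least 1 bp was included, and overlapping regions of different libraries were joined. This gave 35 joined regions, 25 in the larger window and 10 in the smaller, of 50523 in the whole series. The 2 regions that reach across a window edge were counted whole.

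The libraries were made by chromatin immunoprecipitation and sequencing from MM1S, an established human multiple myeloma line. Vehicle (DMSO) was used for 5 libraries, with no time stated, and 3 were from a treatment of 7 days with KDM5-C70 at 50 uM. All came from this 1 line, and the labels do not say whether the libraries of a group came from separate cultures, so p-values measure the spread between these libraries, which may be technical. Each library has its own deposited list of called regions, without read totals, so depth is unknown and a region missing from a list may still carry the mark.

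H3K4me3, histone H3 trimethylated at lysine 4, is a mark of active promoters. KDM5 enzymes remove it, and KDM5-C70 is an inhibitor of them. The replication-dependent histone genes encode H1, H2A, H2B, H3 and H4, are switched on together in S phase to package new DNA, and give short transcripts without introns that end in a stem-loop rather than a poly(A) tail. H3 made from this cluster is itself a substrate of the mark.

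In the RefSeq gene table, which is of GRCh38.p14, 55 coding histone genes of this family lie on chromosome 6, 6 for H1, 12 for H2A, 15 for H2B, 10 for H3 and 12 for H4. Since that build is not the one of the called regions, no gene was assigned to a region, and how many of these genes lie in the 2 windows was not determined. The table orders the genes in 3 runs separated by more than 200 kb, from H2AC1 to H4C8 with 34 genes, from H2BC11 to H2AC12 with 5, and from H2BC13 to H2BC17 with 16. The genes and promoters described here are those of all 3 runs, a wider set than the 2 windows may hold. For 50 of the 55 genes RefSeq gave 54 promoter windows of 300 bases, from 250 before the start to 50 after it. The promoters of 9 H2A and H2B pairs, such as H2BC4 with H2AC6 and H2AC14 with H2BC14, overlapped on opposite strands.

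Short promoter elements were unevenly spread over the histone types. Each was searched on both strands, and none of the 3 contains another. The CCAAT box (CCAAT) was found in 47 of 54 histone promoters (87%), against 34.6% of 35116 promoters of the same length in the table. All 6 H1, 11 H2A, 17 H2B and 10 H3 promoters held it, but 3 of 10 H4 promoters did. The TATA box (TATAAA) was found in 66.7% of histone promoters and 11.5% of all. The octamer (ATTTGCAT), the element of H2B promoters bound by OCT1, was found in 13 of 17 H2B and 9 of 11 H2A promoters, in 1 H3 promoter and in none for H1 or H4, and in 1.77% of all promoters. These matches describe the letters only. In the 9 overlapping H2A and H2B pairs, 1 match in the shared bases counts for both promoters. To show how the elements are arranged, the 250 bases before the start are printed for the first H3, H4 and H2B gene in the promoter table, by position, 5′ to 3′ on the gene's strand, with matches to the 3 elements on either strand in capitals. H3C1 lies at chr6:26020201-26020450 (plus strand), H4C2 at chr6:26027284-26027533 (minus strand) and H2BC1, a testis H2B gene, at chr6:25726527-25726776 (plus strand), all on GRCh38.p14.
H3C1: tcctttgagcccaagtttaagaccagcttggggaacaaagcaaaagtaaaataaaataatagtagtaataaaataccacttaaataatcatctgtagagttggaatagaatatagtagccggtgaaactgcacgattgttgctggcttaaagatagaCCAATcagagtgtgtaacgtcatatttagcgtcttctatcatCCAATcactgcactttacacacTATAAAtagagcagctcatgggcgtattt
H4C2: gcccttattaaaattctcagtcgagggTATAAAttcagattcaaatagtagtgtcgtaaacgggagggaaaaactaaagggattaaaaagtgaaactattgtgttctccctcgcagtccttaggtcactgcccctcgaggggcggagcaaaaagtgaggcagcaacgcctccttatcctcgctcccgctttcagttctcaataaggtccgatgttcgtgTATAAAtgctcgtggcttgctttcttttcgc
H2BC1: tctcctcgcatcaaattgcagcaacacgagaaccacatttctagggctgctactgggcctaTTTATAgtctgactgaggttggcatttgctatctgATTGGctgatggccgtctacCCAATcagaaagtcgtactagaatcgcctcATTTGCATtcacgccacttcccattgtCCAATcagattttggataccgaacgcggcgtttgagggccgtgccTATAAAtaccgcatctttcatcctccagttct
H3C1 has 2 CCAAT boxes and 1 TATA box, H4C2 has 2 TATA boxes and neither of the other elements, and H2BC1 has 3 CCAAT boxes, 2 TATA boxes and 1 octamer.

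The lists fell into 2 ranges of length, each with libraries of both treatments, and called widths moved with list length. DMSO 1, DMSO 2 and KDM5-C70 1 had 15323 to 20998 regions, and the other 5 libraries had 28195 to 37948. They are called the 3 shorter and the 5 longer lists here, sets recognised only from the data, so no test was made between them.

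With the lists as deposited, the same cluster regions were called in most libraries of both treatments. Of the 35 regions, 24 (68.6%) were called in all 8 libraries, compared with 27.2% of all 50523 regions and 26.1% of the 2689 others on chromosome 6. This count fell to 1 with lists cut to equal length by -log10 q-value. Those lists kept a mean of 20 cluster regions per library with KDM5-C70 and 20.8 with DMSO. The matching count over the series was not determined. The cluster's count fell to 0 with lists limited to a -log10 q-value of at least 5. That limit left 10 regions called in all 8 libraries in the whole series. In all, 34 of 35 were called in at least 1 library of each group, against 63.1% in the whole series. None was called in all libraries of one treatment while missing from all of the other, a pattern that 5 of 50523 regions had in the series, 4 of them with DMSO and 1 with KDM5-C70. The regions lay close together, with 9.62 per 100 kb in the windows and 4.50 per 100 kb in the 1489 kb between them, and the median gap to the next region was 7.32 kb, compared with 26.2 kb over the series. As regions of 1 library they were of ordinary strength, with the authors' fold enrichment at a mean percentile of 36.4 to 54.3 within its own list.

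**Figure D1:**
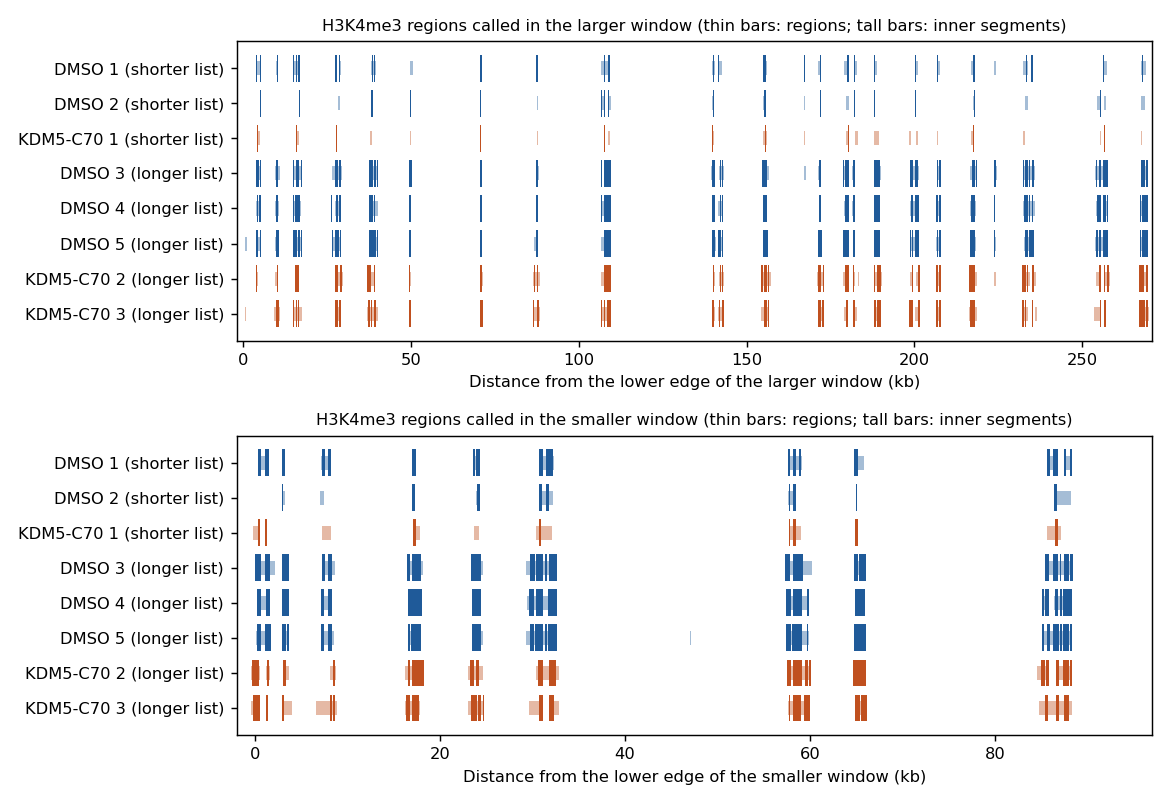
Called regions (pale thin bars) and inner segments (solid tall bars) of each library along both windows, in kb from the lower edge of the window, with DMSO in blue and KDM5-C70 in orange. Most positions recur in all 8 libraries, 24 of the 35 joined regions, and bars are mostly shorter in the 3 shorter lists.

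Gaps in recurrence were most frequent in 2 of the shorter lists. KDM5-C70 1 lacked 7 of the 35 regions and DMSO 2 lacked 6, while the other libraries lacked 1 to 4. Of the 6 regions called in 7 libraries, 3 were absent from KDM5-C70 1 (chr6:26026301-26028045, chr6:26188091-26190207 and chr6:27777872-27779025) and 2 from DMSO 2 (chr6:26223381-26225102 and chr6:27774562-27777102). The sixth, chr6:26020711-26022296, was absent from KDM5-C70 3. It had widths of 1554, 222, 1549, 1555 and 1544 bp in DMSO 1 to 5, and 1129 and 612 bp in KDM5-C70 1 and 2. Both KDM5-C70 widths lay under those of 4 DMSO libraries and above that of DMSO 2. The region chr6:26158480-26160274 was called in 6 libraries and chr6:26240625-26241549 in 5. Only DMSO 5 and KDM5-C70 3 had chr6:26017636-26018014, and only DMSO 5 had chr6:27822019-27822164, at 146 bp, the shortest width in any list. Libraries called 80 to 97.1% of the cluster's regions. The mean was 86.7 ± 5.95% (SD, n = 3) under KDM5-C70 against 92 ± 5.50% (SD, n = 5) under DMSO. That difference was within the spread (2-sided exact permutation p = 0.286). Of all joined regions in the series, libraries called 29.6% (DMSO 2) to 72.9% (KDM5-C70 3), with 34.5% in KDM5-C70 1. Means there were 56.4 ± 19.8% (SD, n = 3) under KDM5-C70 against 49.6 ± 14.1% (SD, n = 5) under DMSO (exact permutation p = 0.536).

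The amount of called sequence in the cluster did not differ between treatments beyond the spread. Called bases in the windows were 36.6, 18.4, 61.0, 54.1 and 58.6 kb in DMSO 1 to 5 and 22.01, 57.6 and 60.8 kb in KDM5-C70 1 to 3. The groups overlapped over nearly their whole range, and in both groups the low values were those of the shorter lists. Means were 46.8 ± 21.5 kb (SD, n = 3) under KDM5-C70 against 45.7 ± 18.0 kb (SD, n = 5) under DMSO (2-sided exact permutation p = 0.893; 0.0357 is the smallest p that 56 arrangements allow). The number of separate regions was 35.7 ± 3.21 and 34.8 ± 1.92 in the same order (exact permutation p = 0.714, n = 3 and 5). With stricter lists, limited to a -log10 q-value of at least 5, the direction turned, to 6 regions against 19.6 (exact permutation p = 0.0357). That limit removed 78.9 to 89.2% of the cluster's regions in KDM5-C70 libraries and 29.4 to 51.5% in DMSO libraries. How much of the whole lists it removed was not counted. As a share of all called sequence left under that limit, the cluster took 0.156% with KDM5-C70 and 0.169% with DMSO (exact permutation p = 0.464). The median -log10 q-value was low across the whole KDM5-C70 lists, at 2.02 to 2.81 against 4.32 to 7.00 with DMSO, and in the cluster it was 2.03 to 2.79 against 4.50 to 6.79.

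As a share of each library's own called sequence, the cluster took 0.162 ± 0.0170% (SD, n = 3) under KDM5-C70 against 0.189 ± 0.0273% (SD, n = 5) under DMSO (exact permutation p = 0.214). The shares were 0.143, 0.176 and 0.166% in KDM5-C70 1 to 3 and 0.205, 0.143, 0.189, 0.195 and 0.213% in DMSO 1 to 5. DMSO 2 lay with the KDM5-C70 libraries and the other 4 DMSO libraries lay above them. With lists cut to equal length the difference turned to 0.00536 percentage points higher with KDM5-C70 (exact permutation p = 0.786). Within the longer lists the cluster took 0.171% on average with KDM5-C70 and 0.199% with DMSO.

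Histone cluster regions were wide. The median width in the windows was above that elsewhere in 6 of 8 libraries, by a mean of 383 bp (2-sided exact permutation p = 0.0469 over sign changes, n = 8), the exceptions being DMSO 2 and KDM5-C70 1. That p measures spread between libraries and not between regions. The median width of a library's regions in the windows was 1398 to 1589 bp in the 5 longer lists, against medians of 763 to 864 bp over the whole of those lists. In the shorter lists it was 955, 402 and 603 bp in DMSO 1, DMSO 2 and KDM5-C70 1, against 766 to 787 bp. Over the 24 regions called in all 8 libraries, the mean width in the 3 shorter lists was lower than that in the 5 longer ones in 24 of 24, by a median of -1.12 on the log2 scale, while the median over all 13729 such regions in the series was -0.58. All 3 shorter lists lay under all 5 longer ones in 18 of the 24 (75%), close to the 71% of all regions. Depth is unknown, and its part in this was not tested.

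**Figure D2:**
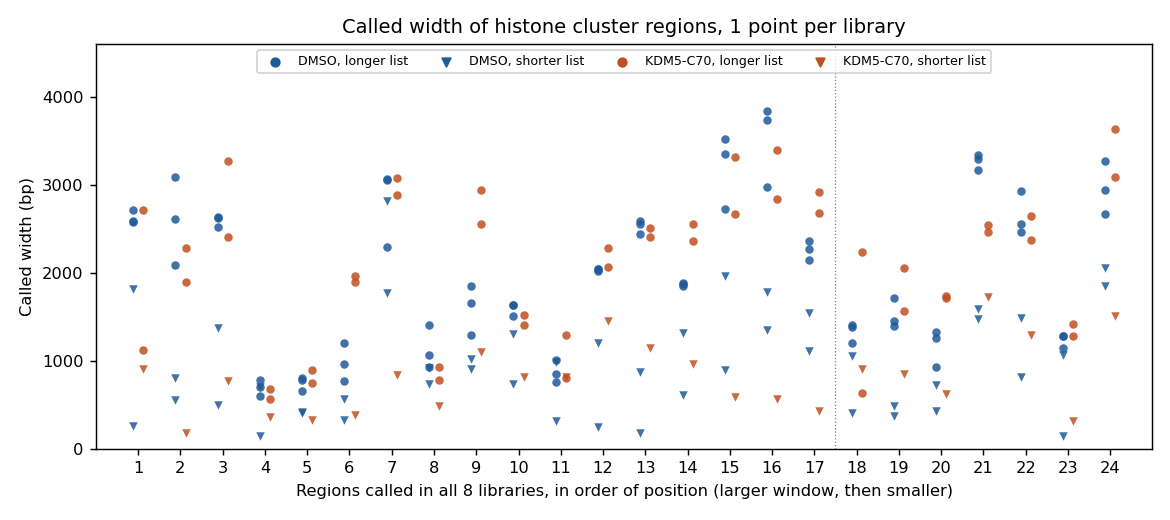
Called width in bp of the 24 regions called in all 8 libraries, 1 point per library, with DMSO in blue, KDM5-C70 in orange, triangles for the shorter and circles for the longer lists, and a dotted line between the larger and the smaller window. Blue and orange points overlap in every region, and triangles lie low.

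The 5 widest regions, by the mean over the 8 libraries, had mean widths of 2378 to 2626 bp. The widest, chr6:27859520-27863361, was called over 2052, 1846, 2941, 2670 and 3272 bp in DMSO 1 to 5 and over 1507, 3089 and 3631 bp in KDM5-C70 1 to 3. The KDM5-C70 values lay at both ends of the DMSO range, with a log2 difference of 0.04 (SE 0.30). In chr6:26270510-26275228 the widths were 1348, 1784, 3836, 2978 and 3737 bp with DMSO and 569, 3400 and 2842 bp with KDM5-C70. KDM5-C70 1 was the lowest library there and the other two lay inside the DMSO range.

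The region chr6:26123531-26126667 was called over 2816, 1769, 2293, 3064 and 3053 bp with DMSO and 844, 2885 and 3074 bp with KDM5-C70. It was the one of these 5 in which DMSO 1 was as wide as the longer lists. In chr6:27804327-27807829 the widths were 1594, 1474, 3294, 3173 and 3336 bp with DMSO and 1729, 2468 and 2540 bp with KDM5-C70. Within the longer lists both KDM5-C70 libraries were narrower there than all 3 DMSO libraries, while in the shorter lists KDM5-C70 1 was wider than both. In chr6:26249176-26253645 they were 1963, 900, 3523, 3348 and 2724 bp with DMSO and 585, 3319 and 2664 bp with KDM5-C70. The groups overlapped in all 5 regions, and the limma adjusted p was 0.994 or 0.997 for each.

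No width in the cluster passed the test across all regions. In the limma fit of log2 widths over 13729 regions, 0 (0%) passed an adjusted p of 0.05 in the series and 0 of the 24 in the cluster. At an unadjusted p under 0.05 there were 242 (1.76%) in the series and 0 in the cluster. Of the 24, 15 were wider and 9 narrower on average with KDM5-C70, by -0.70 to 0.70 on the log2 scale, where 75.1% of all regions tested were wider. Their median of 0.06 stood beside 0.14 for all regions. With each library centred on its median width, 8 were wider and 16 narrower, against 46.9% of all regions wider, the median being -0.10 in the cluster and -0.02 for all regions. The groups did not overlap in 0 of the 24 in either direction, against 0.954% of all regions for wider and 0.605% for narrower. Within the longer lists alone, the KDM5-C70 pair had greater widths than each of 3 DMSO libraries in 6 of 24 (25%, against 39.7% of all regions) and smaller ones in 2 (8.33%, against 8.26%).

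Inner segments, the blocks that the authors' lists mark inside a called region, took a smaller part of the histone regions than of others. Over regions called in all 8 libraries the inner share of called bases in the cluster was 50.2, 40.7, 72.2, 76.5 and 78.0% in DMSO 1 to 5 and 22.7, 61.1 and 56.1% in KDM5-C70 1 to 3. In all other such regions it was 75.3, 70.8, 83.6, 79.6 and 81.6% with DMSO and 62.2, 69.8 and 65.1% with KDM5-C70. The cluster lay lower in 8 of 8 libraries, with differences of -39.5 to -3.12 percentage points and a mean difference of -16.3 ± 13.5 points (SD, n = 8; 2-sided exact permutation p = 0.00781 over sign changes, the smallest that 256 arrangements allow). This measure was added after the data were examined. All 8 libraries share these regions, so the p measures spread between libraries and not between regions. When all called bases were used instead, the cluster lay lower in 5 of 8 libraries, by a mean of -8.74 points (exact permutation p = 0.211, n = 8), so the lower share in every library holds for the shared regions and not for the whole lists. The difference was -39.5 to -25.1 points in the 3 shorter lists and -11.4 to -3.12 points in the 5 longer ones. Histone regions were also wider than others, with a median of the mean width of 1673 bp against 1287 bp over all regions called in all 8, and the part of width in the inner share was not tested.

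**Figure D3:**
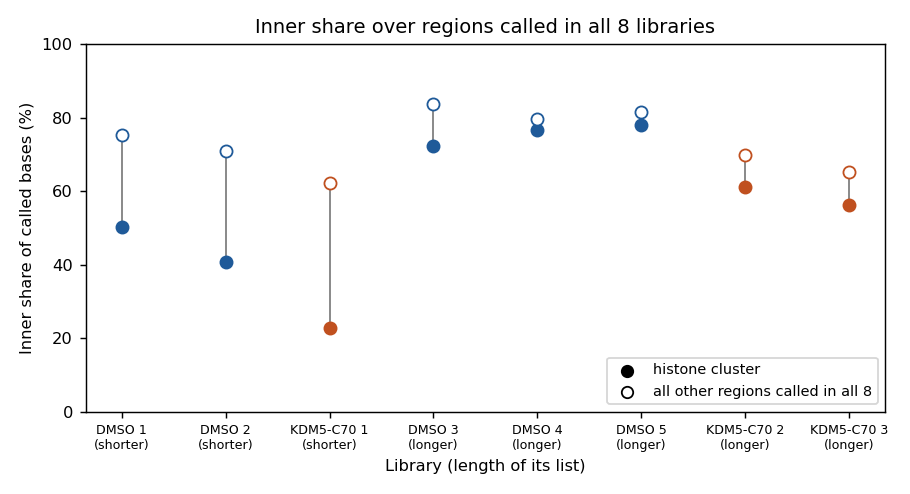
Inner share of called bases in percent for each library, from those regions that all 8 libraries called, with filled points for the histone cluster and open points for all other such regions. The filled point is lower in every library, by the most in the 3 shorter lists.

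Several inner segments in 1 region were frequent in the cluster in the longer lists. There, 50 to 67.6% of the cluster's regions had at least 2 inner segments, against 29.3 to 33.4% of the regions elsewhere in the same lists. In DMSO 1, DMSO 2 and KDM5-C70 1 the values in the cluster were 47.4, 9.09 and 3.13%. Over all 8 libraries the cluster was higher in 6 (exact permutation p = 0.219, n = 8). Per kb of called sequence the cluster held 1.08 to 1.25 segments in the longer lists and the rest 1.18 to 1.36, and it was the lower in 5 of 8 libraries (exact permutation p = 0.164, n = 8). KDM5-C70 1 had no segment at all in 8 of the 24 shared regions and DMSO 2 in 4. Single segments in the cluster had a median width of 406 and 398 bp in KDM5-C70 2 and 3 and of 575, 535 and 523 bp in DMSO 3 to 5. In the shorter lists it was 294 and 256 bp in DMSO 1 and DMSO 2 and 228 bp in KDM5-C70 1. The means were 344 ± 101 bp (SD, n = 3) under KDM5-C70 against 437 ± 149 bp (SD, n = 5) under DMSO (exact permutation p = 0.357). Segment widths elsewhere in the lists were not measured.

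Between treatments, the inner share of the cluster was lower with KDM5-C70 within both sets of lists, but not beyond the spread of all libraries. Over all called bases in the windows it was 24.3, 60.6 and 55.8% in KDM5-C70 1 to 3 and 49.8, 41.3, 71.3, 76.4 and 77.4% in DMSO 1 to 5. Within the shorter lists KDM5-C70 1 lay under both DMSO libraries, and within the longer lists KDM5-C70 2 and 3 lay under all 3, with means of 58.2% and 75.0%. Pooled means were 46.9 ± 19.7% (SD, n = 3) and 63.2 ± 16.6% (SD, n = 5), a difference of -16.3 points (2-sided exact permutation p = 0.25). Elsewhere in the same libraries the difference was -13.0 points, with groups that do not overlap (exact permutation p = 0.0357). The -log10 q-values were lower in all KDM5-C70 lists, as given above, and their part in the inner share was not tested. In DMSO 1 to 5 the cluster's median -log10 q-value was 6.79, 4.50, 6.68, 5.12 and 5.59, beside the shares given above. DMSO 1 and DMSO 2 also have shorter lists. The difference in the cluster was not distinguishable from that elsewhere. The cluster's share minus the rest was -10.8 ± 20.3 points (SD, n = 3) under KDM5-C70 against -7.51 ± 15.6 points (SD, n = 5) under DMSO (exact permutation p = 0.75). Without KDM5-C70 1 the difference of these values turned from -3.28 to 8.41 points, and without DMSO 4 or DMSO 5 it was 0.62 or 0.03. Without KDM5-C70 1 the difference in the inner share itself shrank from -16.3 to -5.03 points.

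In each window alone the inner share was again lower on average with KDM5-C70 and within the spread. In the larger window the inner share was 46.6 ± 20.1% (SD, n = 3) under KDM5-C70 against 62.4 ± 18.3% (SD, n = 5) under DMSO (exact permutation p = 0.286). In the smaller it was 47.5 ± 20.4% and 65.5 ± 13.7% (exact permutation p = 0.214, n = 3 and 5).

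No single histone region passed the test of inner share across all regions. Of the 24 shared regions 3 were higher on average with KDM5-C70 and 21 lower, near the series, where 15.8% of regions were higher. The differences ran from -44.0 to 21.8 percentage points, with a median of -19.1 points against -10.8 points over all 13729 regions. In the limma fit 0 (0%) of all regions and 0 of the 24 passed an adjusted p of 0.05. The smallest adjusted p in the cluster was 0.112. Before adjustment, p was under 0.05 for 2571 regions (18.7%) of the series and for 6 of 24 (25%) in the cluster, all 6 lower. With each library centred on its median share, 15 of the 24 were lower and 9 higher, against 56.3% of all regions higher, with a median of -6.34 points against 1.93 for all regions. The groups did not overlap in 2 of 24 (8.33%), both lower with KDM5-C70, against 12.2% of all regions for lower and 0.204% for higher, so such regions were no more frequent in the cluster than in the series.

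**Figure D4:**
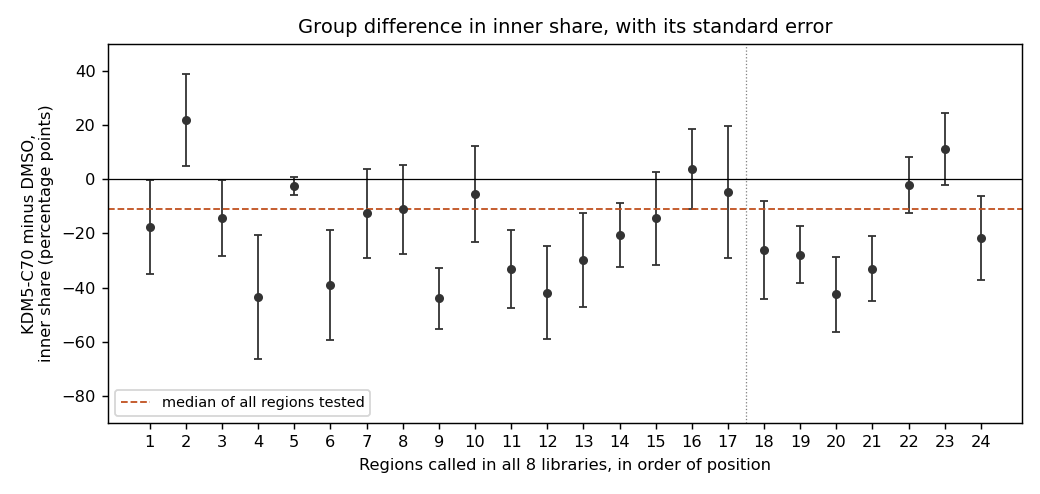
Difference in inner share between KDM5-C70 and DMSO in percentage points for the 24 regions called in all 8 libraries, with standard errors from limma, and the median of all regions tested as a dashed line, and the 2 windows parted by a dotted line. Of the points, 21 lie under 0, and the bars are wide.

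The first of these 2, chr6:26171224-26174240, had inner shares of 97.3, 56.9, 73.4, 100 and 90.9% in DMSO 1 to 5 and 29.3, 46.3 and 43.6% in KDM5-C70 1 to 3. All KDM5-C70 values lay under the lowest DMSO value, that of DMSO 2. The difference was -44.0 points (SE 11.3, limma adjusted p = 0.112). The same region was called over 1020, 907, 1855, 1290 and 1653 bp with DMSO and 1096, 2942 and 2558 bp with KDM5-C70. In the longer lists it was thus wider with KDM5-C70 while its segments took a smaller share. The share is taken over called bases, so a wider call lowers it where the segment bases stay equal. Segment bases of single regions were not compared, so the smaller share does not show smaller segments.

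The second, chr6:27797972-27799789, had inner shares of 76.4, 75.1, 80.6, 99.6 and 79.4% with DMSO and 0, 53.7 and 65.6% with KDM5-C70. KDM5-C70 1 had no segment there, and the other two lay under every DMSO library. The difference was -42.5 points (SE 13.9, limma adjusted p = 0.162), and -22.6 points without KDM5-C70 1. Its widths were 729, 434, 1332, 924 and 1255 bp with DMSO and 620, 1708 and 1739 bp with KDM5-C70. In the longer lists it was again wider with KDM5-C70 than with DMSO, so the same limit applies to its share.

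Within the longer lists, both KDM5-C70 libraries lay under all 3 DMSO libraries in 13 of the 24 regions (54.2%, against 45.1% of all regions) and above them in 1 (4.17%, against 2.23%). The median difference there was -13.8 points in the cluster and -12.0 points over all regions. All 3 shorter lists lay under all 5 longer ones in 5 of the 24 (20.8%, against 9.37%), and the mean of the shorter lists was lower in 23 of 24, by a median of -24.2 points against -5.36 over all regions.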

How the data were processed

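H3K4me3 regions of 8 libraries were analysed, 5 from DMSO and 3 from KDM5-C70. Per the submitters' processing notes, the tools included MACS2 2.1.0, Bowtie 1.1.2, HOMER 4.8 and Trim Galore 0.40, and the build was GRCh37. Tool settings, and whether a control was used, were not given in the sources used here. Lists were deposited per library and were read by its column layout as positions, a score, a fold enrichment (ratio), and -log10 p-value and q-value per region, all the authors' own values. Region names inside the lists of DMSO 3, 4 and 5 carry the numbers 4, 5 and 6, and samples were taken as deposited.

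Regions on chromosomes 1 to 22 and X were joined by an overlap of at least 1 bp. Blocks of 1 bp, which mark ends, were left out, and the inner share is the bases in the other blocks over the called bases. Values per library were tested over all 56 ways to pick 3 of 8 libraries, 2-sided, doubling the smaller tail. Widths (log2) and inner shares (percent) were fitted across all regions called in all 8 libraries with limma 3.58.1 (R 4.3.3, variance trend, Benjamini-Hochberg at 0.05), beside Python 3.11.15, numpy 2.4.6 and matplotlib 3.10.9. Interval steps were checked on a small made-up example. The limma fit was checked on simulated widths with a spread below the median one of these data, so that check does not show its power here. Named regions were the 5 widest and those whose groups do not overlap. The regions, lists and measures were chosen with earlier results of these data known. Depth is unknown, so no counting interval is given. Deviations of same-numbered libraries from their group means correlated at 0.367, -0.306 and 0.318 for numbers 1, 2 and 3, so the numbers were not taken as pairs. Alternatives were stricter lists, lists of equal length, joining within 1000 bp, inner segments only, 1 window, other limma settings, a pseudocount of 200 bp and leaving out each library. The comparison within longer lists and the one over regions called in all 8 were added after the data were examined.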

Additional observations from a re-analysis of the deposited data

Results flagged for a closer look

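A search for single libraries that stand apart in a group was run on 54 sets of DMSO values and marked 7, where about 5% are marked by chance. It was not run on the KDM5-C70 group of 3. Widths were marked in 2 regions. In chr6:26066379-26067442 the width was 146 bp in DMSO 2, against 595 to 778 bp in the rest of the group. In chr6:27839596-27841102 it was again 146 bp in DMSO 2, against 1067 to 1282 bp. Both stand at the shortest width of any list. Inner shares were marked in 5 regions. DMSO 1 had 41.6% in chr6:26204900-26207292 (others 86 to 99.6%) and 35.1% in chr6:27839596-27841102 (others 90.6 to 100%). DMSO 2 had 0% in chr6:27781603-27783843 (others 49.6 to 61.2%). DMSO 3 had 73.9% in chr6:27791167-27793221 (others 93.7 to 100%), and DMSO 4 had 99.6% in chr6:27797972-27799789 (others 75.1 to 80.6%). Of the 7 marks, 5 were in DMSO 1 or DMSO 2, which have shorter lists.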

How the results depend on the processing

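Differences below are KDM5-C70 minus DMSO. The pooled inner share kept its direction under every alternative tried, from -26.7 to -5.03 percentage points. It passed 0.05 under none. Where a library was left out, in the longer lists alone and in the replicate block, it could not pass. Those exact tests had 35, 21, 10 or 8 arrangements, too few for a p under 0.05. With stricter lists called bases turned to -19.6 kb, regions to -13.6 and median width to -151 bp, while the share of called sequence was -0.0133 points. With inner segments they turned to -6.68 kb, -4.13 regions and -93.3 bp. Regions were also fewer with lists of equal length (-0.8), in the larger window (-0.0667) and when joined within 1000 bp (-1.13). The share of called sequence turned to 0.00536 points with lists of equal length. Regions called in all 8 fell from 24 to 0 with stricter lists and to 1 with lists of equal length. For lists of equal length the matching count over the series was not determined. Leaving out each library gave -5.93 to 13.5 kb, -0.3 to 2.7 regions, -152 to 346 bp, and -9.89 to 8.41 points for the inner share minus the rest. Called bases and median width turned negative without DMSO 1, DMSO 2, KDM5-C70 2 or KDM5-C70 3, and regions without KDM5-C70 2. It gave 0 to 138 limma calls for inner share (138 without KDM5-C70 1, 71 without KDM5-C70 2), none in the cluster. No limma setting called a cluster region, though with stricter lists none of them could be tested. Over the series, inner share gave 55 calls without the variance trend and 166 with the set of lists as a term. Width gave 10 with the replicate block, 27 with that term and centring, and 1 with stricter lists, where only 10 regions could be tested. With the replicate block, which left out DMSO 4 and DMSO 5, the inner share minus the rest turned to 6.35 points. The other differences were 8.12 kb, 0.667 regions, -0.0173 points of share, 231 bp and -7.23 points of inner share. None passed, but 8 sign changes are too few for an exact p under 0.05, so no conclusion is drawn from that. The cause of these changes was not tested.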

Other observations

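Picked after their values were seen, 3 histone cluster regions stood at the ends of the range. The region chr6:26087432-26088329 had the highest inner share by the mean over the 8 libraries, 97.7%, with values of 89.0 to 100%, and widths of 322 to 898 bp. The region chr6:27781603-27783843 had the lowest mean inner share of the 24 shared regions, at 34.4%, with no segment in DMSO 2 or KDM5-C70 1. The region chr6:26184000-26184708 was called in all 3 shorter lists, at 274 to 314 bp, and in DMSO 3 at 697 bp, but in none of the other 4 longer lists.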
